A study of Mus musculus with 12 samples.

Results

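The genes described here are those whose signal in spinal cord of ceftriaxone-treated SMA mice lay outside the signals of every other cord in the study, on the same side in all 4 treated mice. Members were chosen on these arrays: a probe set was taken where its mean log2(signal + 16) over the 12 arrays was at least 7.14, where all 4 SMA ceftriaxone arrays lay above (or all below) all 8 others, and where the SMA ceftriaxone mean was at least 0.4 log2 units from both other group means. Of 22626 probe sets, 13574 reached that level, and 39 met the rule, 28 on the higher side (0.206% of the probe sets kept) and 11 on the lower side (0.081%). The rule sets 8 genes aside, and 5 of the 39 probe sets belong to 4 of them (Ccng1, Dcxr, Chodl and Calcb), which leaves 34 members: 25 higher, 23 of them named, and 9 lower, all named. By the same rule 2736 probe sets lay apart in SMA vehicle arrays (9.93% higher and 10.2% lower) and 525 in wildtype arrays (1.0% higher and 2.87% lower). With no limit on size, 1.24% lay apart in SMA ceftriaxone arrays on either side.

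Spinal muscular atrophy (SMA) is a motor neuron disease caused by too little survival motor neuron protein, and the study asked how ceftriaxone, a beta-lactam antibiotic known to raise the glutamate transporter encoded by Slc1a2, acts in a severe mouse model of it. Spinal cord RNA was hybridised to 1 expression array per sample, with 4 samples in each of 3 groups. SMA ceftriaxone and SMA vehicle mice had the genotype mSmn-/- and wildtype mice mSmn+/-, so that the wildtype group also lacks 1 intact mouse allele. All 3 groups are of line 4299 on an FVB background and carry the human SMN2 gene and the SMNΔ7 transgene. Treated mice received ceftriaxone by intraperitoneal injection at 200 mg/kg daily from an age of 5 days, the other groups received vehicle (saline), and all were killed at 13 days. The labels describe the tissue both as whole cord and as lumbar cord of mice perfused with fixative, call the vehicle group untreated in places, and give no sex.

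As background, several of the higher members are known as genes of astrocytes, the glia that clear glutamate, couple to each other through connexin channels, pass on metabolites and engulf debris. Several others act at the cell surface or in lipid, iron and sulfate metabolism. The lower members include secreted and matrix proteins and proteins of RNA handling. In whole tissue, fewer cells of a type and less RNA per cell cannot be told apart.

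The arrays were checked against their labels. All 16 pan-neuronal and all 15 astrocyte genes listed as markers of the tissue passed the level limit. Smn1 signals were 15.8, 3.3, 6.4 and 3.6 in SMA ceftriaxone cords and 3.6, 3.7, 3.9 and 5.7 in SMA vehicle cords, against 305.7, 414, 263 and 269 in wildtype cords, as the genotypes state. Wildtype array 2 stands apart: it held thymocyte transcripts, with Rag1 at 7862.5 and Cd3d at 5576. The highest values on any other array, 129.9 and 53.8, were both on SMA ceftriaxone array 2. The correlation of wildtype array 2 with the other wildtype arrays was 0.924 to 0.93, against 0.986 to 0.989 among those. Results against wildtype are therefore given with and without it. The brightest Xist probe set, a mark of female tissue, read 1688.5 to 2216 on all 4 SMA ceftriaxone arrays. It read 1929 to 2343.5 on SMA vehicle arrays 1 and 4 and wildtype array 3, and 20.9 to 74.2 on the other 5 arrays. The Y-linked gene Eif2s3y ran the other way, at 0.5 to 5 in SMA ceftriaxone cords. The treated group thus holds 1 sex by these genes, and each member is also set against the 3 other Xist-high arrays.

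The members in every array are drawn below as log2 differences from the mean of the 8 other arrays. Averaged over the 25 higher members, SMA ceftriaxone arrays 1 to 4 lay 0.48, 0.83, 0.55 and 0.82 log2 units above that mean. Over the 9 lower members they lay at -0.47, -0.66, -0.63 and -0.76. A difference of 1 on this scale is a 2-fold change of the signal plus offset. Treated array 1 had the smallest shift on both sides: it lay nearest to the other groups in 16 of 25 higher and 7 of 9 lower members. Arrays 2 and 4 were each the highest of the 4 in 11 of 25 higher members. The nearest array of another group was wildtype for 16 higher and 7 lower members and SMA vehicle for 9 and 2.

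**Figure D1:**
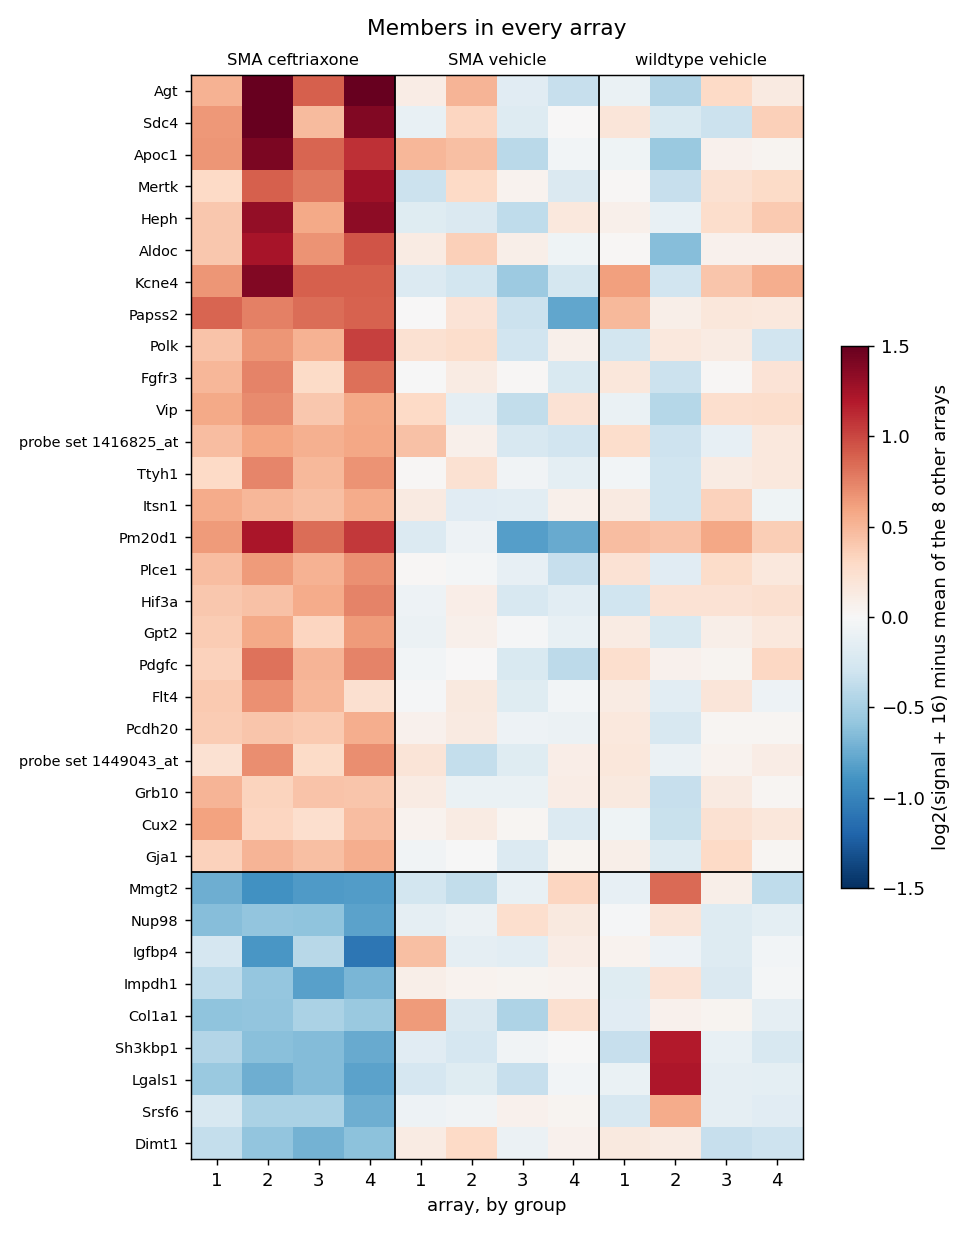
The 34 members (rows, the higher ones above the line) in the 12 arrays (columns, by group). Colour is log2(signal + 16) minus the mean of the 8 arrays without ceftriaxone. Treated arrays 2 and 4 have the darkest reds, and wildtype array 2 stands out in red for Mmgt2, Sh3kbp1, Lgals1 and Srsf6.

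Promoter sequences, from the RefSeq table of build GRCm38.p6, show what the control regions of the most shifted members look like. The 250 bases before the transcription start are given 5′ to 3′ for the 3 members per side with the largest differences that the table holds. Where it lists several starts for a gene, 1 is shown. Capitals mark, on either strand, the TATA box TATAAA, the motif TGCGCNC, the Sp1-type box GGGCGG and the p53 decamer, and no 2 marked stretches overlap.
Agt (chr8:124569707-124569956, minus strand): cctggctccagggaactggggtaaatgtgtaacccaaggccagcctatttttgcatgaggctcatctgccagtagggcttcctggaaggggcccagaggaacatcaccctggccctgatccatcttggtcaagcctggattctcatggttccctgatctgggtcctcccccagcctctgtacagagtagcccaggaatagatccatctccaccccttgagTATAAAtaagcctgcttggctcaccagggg
Sdc4 (chr2:164443189-164443438, minus strand): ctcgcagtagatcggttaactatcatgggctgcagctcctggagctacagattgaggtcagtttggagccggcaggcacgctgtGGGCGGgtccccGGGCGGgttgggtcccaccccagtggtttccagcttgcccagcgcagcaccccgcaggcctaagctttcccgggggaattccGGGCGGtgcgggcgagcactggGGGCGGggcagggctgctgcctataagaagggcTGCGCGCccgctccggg
Mertk (chr2:128698665-128698914, plus strand): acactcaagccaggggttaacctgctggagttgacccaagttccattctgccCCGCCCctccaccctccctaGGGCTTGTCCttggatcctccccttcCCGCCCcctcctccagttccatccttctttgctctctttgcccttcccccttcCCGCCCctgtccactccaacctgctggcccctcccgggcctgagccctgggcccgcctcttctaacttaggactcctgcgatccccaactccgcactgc
Nup98 (chr7:102210167-102210416, minus strand): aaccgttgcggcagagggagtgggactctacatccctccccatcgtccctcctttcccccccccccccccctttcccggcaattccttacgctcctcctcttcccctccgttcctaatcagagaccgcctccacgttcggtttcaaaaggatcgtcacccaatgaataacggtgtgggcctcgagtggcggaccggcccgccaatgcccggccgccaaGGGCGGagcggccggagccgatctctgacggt
Igfbp4 (chr11:99040994-99041243, plus strand): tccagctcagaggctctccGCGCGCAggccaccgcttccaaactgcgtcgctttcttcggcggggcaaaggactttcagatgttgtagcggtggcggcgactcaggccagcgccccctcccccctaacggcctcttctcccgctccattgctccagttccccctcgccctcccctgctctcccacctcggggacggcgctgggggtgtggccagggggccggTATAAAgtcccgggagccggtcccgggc
Impdh1 (chr6:29216365-29216614, minus strand): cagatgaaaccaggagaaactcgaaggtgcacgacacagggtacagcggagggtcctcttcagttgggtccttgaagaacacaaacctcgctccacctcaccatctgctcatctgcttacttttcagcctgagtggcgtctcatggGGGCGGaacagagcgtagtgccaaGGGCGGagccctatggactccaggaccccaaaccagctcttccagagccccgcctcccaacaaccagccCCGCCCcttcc
The Agt promoter has a TATAAA that begins at -30 and none of the other motifs. Sdc4 has 4 GGGCGG boxes and a TGCGCNC, Mertk 3 GGGCGG boxes and a p53 decamer at -178, Nup98 a single GGGCGG at -32, Igfbp4 a TATAAA at -28 and a TGCGCNC, and Impdh1 3 GGGCGG boxes.

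Of the 32 named member genes, 26 matched the table (Apoc1, Heph, Pm20d1, Mmgt2, Col1a1 and Lgals1 did not), with 37 promoters of 300 bases (26 of higher and 11 of lower members), to be read beside all 32851 promoters. The median GC content was 58.5% for higher and 70% for lower members, against 52.7% over all promoters. GGGCGG was found in 46.2% of higher and 81.8% of lower member promoters, against 35.7% of all. The lower promoters with it, 9 of 11, belong to Dimt1, Impdh1, Nup98, Sh3kbp1 and Srsf6 only, so some genes count more than once. TGCGCNC stood in 30.8% and 27.3%, against 15.4% of all, and TATAAA in 11.5% and 18.2%, against 13.6%. The p53 decamer was found in 19.2% of higher member promoters (Mertk, Pcdh20, Plce1, Polk and Vip) and in 0 of 11 lower ones, against 8.36% of all. AGAACA stood in 7.69% and 27.3%, against 19.0% of all, and CCAAT in 23.1% and 9.09%, against 37.4%. The other motifs searched on both strands were the E box CACGTG, the motif TGCACNC, the cyclic AMP element TGACGTCA, the antioxidant element TGACNNNGC, the E2F box TTTCGCGC, the heat shock element and the Znf143 motif, each found in at most 4 promoters of higher and 1 of lower members, and in 0.323% to 12.6% of all promoters. These are matches of letters in a short window and no measure of binding, and promoters of 1 gene overlap in part. The set of all promoters was not limited to genes that passed the level limit.

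The astrocyte genes among the higher members are Agt, Aldoc, Fgfr3 and Gja1. Agt encodes angiotensinogen, the precursor of the angiotensin peptides, which astrocytes make in the central nervous system. Its MAS5 signals were 4774, 9461, 6186 and 10043 in SMA ceftriaxone cords, against 3597, 4714, 2947 and 2602 in SMA vehicle cords and 3095, 2443, 4082 and 3654 in wildtype cords. Treated arrays 2 and 4 were far above all others, while array 1 was only just above SMA vehicle array 2. The differences of group means were 1.10 ± 0.25 (SE) from SMA vehicle and 1.16 ± 0.25 from wildtype on the log2 scale, or 1.02 from wildtype without wildtype array 2. Aldoc, which encodes the glycolytic enzyme aldolase C, read 1272, 2276, 1545 and 1861 in SMA ceftriaxone cords, against 1046, 1234, 1020.3 and 919 in SMA vehicle cords and 974, 609, 1004 and 1001 in wildtype cords. The treated arrays were highest at arrays 2 and 4 again, and wildtype array 2 was the lowest of all 12. Aldoc differed by 0.69 ± 0.19 from SMA vehicle and 0.94 ± 0.19 from wildtype (0.765 without wildtype array 2). Fgfr3, a fibroblast growth factor receptor of astrocytes and their progenitors, read 3141, 3723, 2723 and 3958 in SMA ceftriaxone cords, against 2220.4, 2429, 2248 and 1898 in SMA vehicle cords and 2510.2, 1776, 2252 and 2562 in wildtype cords. Treated array 3 was the lowest of its group and still above wildtype array 4, and the differences were 0.61 ± 0.14 and 0.57 ± 0.14 (0.46 without wildtype array 2).

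Gja1 encodes connexin 43, the main gap junction protein of astrocytes. The member probe set read 8051, 8998, 8659.5 and 9218 in SMA ceftriaxone cords, against 6115, 6328, 5483 and 6535 in SMA vehicle cords and 6746, 5527, 7785 and 6453 in wildtype cords. The treated arrays were close to each other, and wildtype array 3 came nearest to them. The differences, 0.51 ± 0.10 from SMA vehicle and 0.41 ± 0.10 from wildtype, are near the limit of the rule, and the difference from wildtype was 0.32 without wildtype array 2. Ttyh1, a membrane protein of the tweety family, averaged 5272 ± 707 in SMA ceftriaxone, 3631 ± 416 in SMA vehicle and 3573 ± 505 in wildtype cords (SD, n = 4 each), with differences of 0.53 ± 0.12 and 0.56 ± 0.12.

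**Figure D2:**
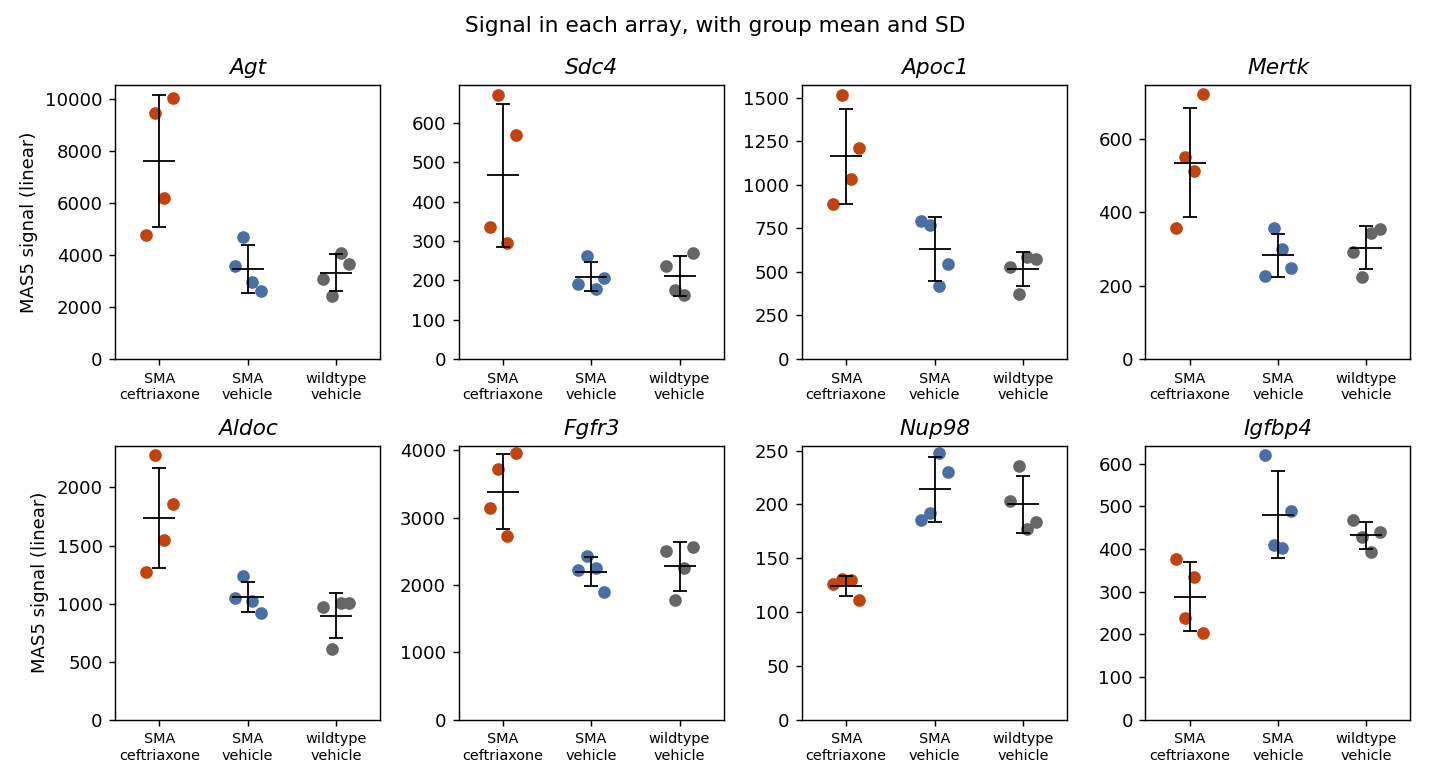
MAS5 signal (linear axis from 0) of 8 members in SMA ceftriaxone, SMA vehicle and wildtype cords, with 1 point per array, the group mean as a bar and the SD as whiskers. Agt treated arrays read 4774 to 10043, all other Agt arrays 2443 to 4714. The treated points of Nup98 lie close together below all others.

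A further group of higher members acts at the cell surface, in engulfment or in the transport of lipid and metal. Sdc4 encodes syndecan-4, a heparan sulfate proteoglycan that helps bind matrix and growth factors. It read 335, 672, 295 and 569 in SMA ceftriaxone cords, against 190.2, 263, 178 and 207 in SMA vehicle cords and 236, 175, 163 and 269 in wildtype cords. Treated arrays 2 and 4 were well above arrays 1 and 3 of their own group, and the differences of means were 1.03 ± 0.24 from SMA vehicle and 1.04 ± 0.24 from wildtype. Apoc1, an apolipoprotein of lipoprotein particles, read 888, 1516, 1034 and 1213 in SMA ceftriaxone cords, against 792, 769.8, 417 and 544 in SMA vehicle cords and 531, 374, 586 and 576 in wildtype cords. Array 2 was again highest, SMA vehicle arrays 1 and 2 were the nearest others, and the differences were 0.88 ± 0.22 and 1.14 ± 0.22. Apoc1 met the rule under each of 20 alternative settings.

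Mertk is a receptor tyrosine kinase through which glia and macrophages take up dying cells and synapses. Its signals were 358, 549, 512 and 722 in SMA ceftriaxone cords, against 227, 358, 299.7 and 247 in SMA vehicle cords and 293, 225, 342 and 355 in wildtype cords. Treated array 1 was almost level with SMA vehicle array 2, so the separation rests on a gap of 0.001 log2 units, although the means differed by 0.86 ± 0.20 and 0.76 ± 0.20. Heph encodes hephaestin, a copper-dependent ferroxidase used in iron export. The Heph signals were 187, 369, 213 and 374 in SMA ceftriaxone cords, against 120.2, 116, 102 and 156 in SMA vehicle cords and 147, 127, 169 and 186 in wildtype cords. Arrays 2 and 4 of the treated group stood far above the other 10 arrays, and array 1 was barely above wildtype array 4. Heph differed by 1.06 ± 0.22 from SMA vehicle and by 0.75 ± 0.22 from wildtype. Mertk and Heph did not meet the rule after quantile normalization or median centring, and Agt and Aldoc missed it after median centring.

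Kcne4, an accessory subunit of voltage-gated potassium channels, read 229, 389, 273 and 272 in SMA ceftriaxone cords, against 119, 112, 90 and 113 in SMA vehicle cords and 222, 111, 191 and 211 in wildtype cords. Here the order of the groups differed from that of Agt: SMA vehicle arrays were lowest, 3 of 4 wildtype arrays lay between, and wildtype array 2 was level with SMA vehicle. The differences were 1.28 ± 0.20 from SMA vehicle and 0.63 ± 0.20 from wildtype (0.43 without wildtype array 2). Papss2, which makes the activated sulfate used to sulfate proteoglycans and steroids, had treated arrays close together, with 489.5, 448, 476 and 491 in SMA ceftriaxone cords, against 259, 300.4, 203 and 144 in SMA vehicle cords and 369, 277, 294 and 289.6 in wildtype cords. Its gap to the nearest other array, wildtype array 1, was 0.27 log2 units and the widest of the higher members, with differences of 1.07 ± 0.17 and 0.61 ± 0.17. Pm20d1, a secreted enzyme that joins fatty acids to amino acids, averaged 205 ± 38.6 in SMA ceftriaxone, 68.7 ± 22.1 in SMA vehicle and 141 ± 9.81 in wildtype cords (SD, n = 4 each). It had the largest difference of all members from SMA vehicle, 1.40 ± 0.19, and 0.48 ± 0.19 from wildtype. The Pm20d1 mean lies at the lower level limit, and it missed the rule in 11 of 20 alternative settings.

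Polk, a DNA polymerase that copies past damaged bases and a p53 target, read 215, 256, 229 and 332 in SMA ceftriaxone cords, against 184, 190, 124 and 164 in SMA vehicle cords and 125, 175, 171 and 124 in wildtype cords. Treated array 4 was the highest, the SMA vehicle and wildtype arrays overlapped, and the differences were 0.59 ± 0.17 and 0.73 ± 0.17 (0.81 without wildtype array 2). Vip encodes vasoactive intestinal peptide. Its signals were 219.8, 243, 194 and 219 in SMA ceftriaxone cords, against 179, 129, 107 and 168 in SMA vehicle cords and 132, 102, 173 and 174 in wildtype cords. The treated arrays were close together and SMA vehicle array 1 came nearest. The differences were 0.56 ± 0.18 from SMA vehicle and 0.57 ± 0.18 from wildtype, and the value against wildtype was 0.27 with Xist signal as a covariate and 0.43 without wildtype array 2. Probe set 1416825_at, which has no single gene symbol, read 559, 614, 589.5 and 609 in SMA ceftriaxone cords, against 550.1, 424, 338 and 327 in SMA vehicle cords and 483, 321, 367 and 451 in wildtype cords. SMA vehicle array 1 was almost as high as treated array 1 there, while the group means differed by 0.55 ± 0.16 and 0.55 ± 0.16.

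The remaining higher members had shifts from wildtype of 0.41 to 0.48 log2 units. Among signalling genes, Pdgfc, a growth factor of the platelet-derived family, averaged 609 ± 91.5 in SMA ceftriaxone, 349.5 ± 45.2 in SMA vehicle and 443 ± 43.2 in wildtype cords (SD, n = 4 each) and differed by 0.77 ± 0.13 from SMA vehicle and 0.44 ± 0.13 from wildtype. Plce1, a phospholipase C that is activated by Ras proteins, averaged 746 ± 54.3 in SMA ceftriaxone, 455 ± 51.4 in SMA vehicle and 543 ± 72 in wildtype cords, with differences of 0.70 ± 0.11 and 0.45 ± 0.11. Flt4 is the receptor of lymphatic endothelium for vascular endothelial growth factor C. It averaged 210.4 ± 29.5 in SMA ceftriaxone, 146 ± 15 in SMA vehicle and 151 ± 18.5 in wildtype cords, with differences of 0.47 ± 0.13 and 0.43 ± 0.13. Grb10, an adaptor that dampens insulin and insulin-like growth factor receptors, averaged 1952 ± 98.5 in SMA ceftriaxone, 1462 ± 124 in SMA vehicle and 1454 ± 222 in wildtype cords. Itsn1, a scaffold of clathrin endocytosis, averaged 597 ± 21.8 in SMA ceftriaxone, 407 ± 46.7 in SMA vehicle and 428 ± 84 in wildtype cords. Its difference from wildtype, 0.48 ± 0.13, was 0.27 with Xist signal as a covariate.

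Hif3a and Cux2 are the transcription factors among the members. Hif3a, an alpha subunit of the hypoxia-inducible factors, averaged 329 ± 37.6 in SMA ceftriaxone, 207 ± 22.6 in SMA vehicle and 239.6 ± 42.1 in wildtype cords (SD, n = 4 each), with differences of 0.63 ± 0.14 and 0.44 ± 0.14. Cux2, a homeodomain factor, averaged 176 ± 21.5 in SMA ceftriaxone, 128 ± 13.4 in SMA vehicle and 129.5 ± 24.8 in wildtype cords and lies at the edge of the rule. Gpt2, the mitochondrial alanine aminotransferase, averaged 1842 ± 192 in SMA ceftriaxone, 1281 ± 76.3 in SMA vehicle and 1354 ± 157 in wildtype cords, with differences of 0.51 ± 0.10 and 0.44 ± 0.10. Pcdh20, a protocadherin, averaged 335 ± 19.6 in SMA ceftriaxone, 246 ± 19.5 in SMA vehicle and 243 ± 28.8 in wildtype cords. The second unnamed probe set, 1449043_at, averaged 382 ± 70.9 in SMA ceftriaxone, 258 ± 47.6 in SMA vehicle and 279.6 ± 22.1 in wildtype cords.

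**Figure D3:**
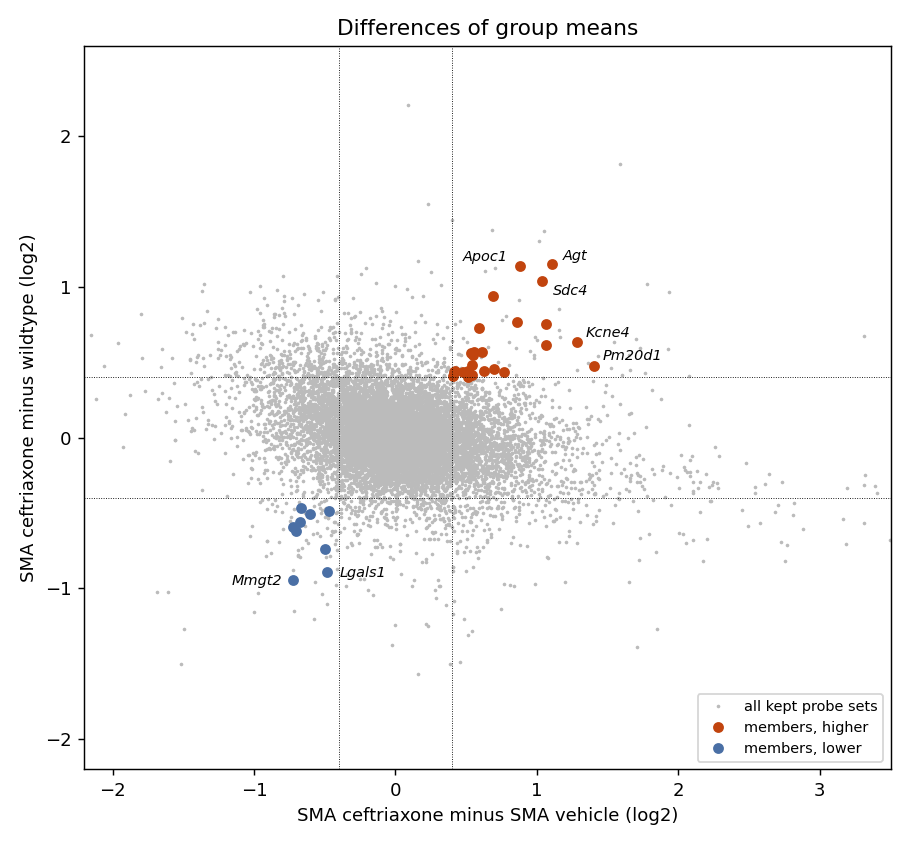
Each point is 1 of the 13574 probe sets kept, by its difference of group means (log2) from SMA vehicle on the horizontal axis and from wildtype on the vertical axis. Dotted lines mark 0.4 and -0.4. The members fill the outer corners at upper right (Agt at 1.10 and 1.16) and lower left (Mmgt2 at -0.72 and -0.94), grey points in those corners have arrays that overlap or belong to genes set aside by the rule, and 11 points lie outside the axes.

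The lower members are given by what each is known to do. Nup98, a component of the nuclear pore, had the widest gap of all members, with signals of 126, 130.4, 130.2 and 111 in SMA ceftriaxone cords, against 186, 192, 248 and 230.1 in SMA vehicle cords and 203, 235, 177 and 184 in wildtype cords. No treated array came within 0.40 log2 units of any other array, and the differences of means were -0.71 ± 0.13 from SMA vehicle and -0.62 ± 0.13 from wildtype. Srsf6, a serine and arginine-rich splicing factor, read 2461, 2089.8, 2086 and 1749 in SMA ceftriaxone cords, against 2749, 2806, 3049.8 and 2984 in SMA vehicle cords and 2469.7, 4291, 2658 and 2592 in wildtype cords. Treated array 1 was almost level with wildtype array 1, and wildtype array 2 was far above the rest. Srsf6 differed by -0.47 ± 0.15 from SMA vehicle and by -0.49 ± 0.15 from wildtype, or -0.30 without wildtype array 2, so it no longer met the rule.

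Dimt1 encodes a methyltransferase that modifies ribosomal RNA of the small subunit. Its signals were 212, 178, 163 and 175 in SMA ceftriaxone cords, against 302, 343, 259 and 289.7 in SMA vehicle cords and 307, 303, 214 and 219.8 in wildtype cords. Wildtype arrays 3 and 4 were close to treated array 1, and the differences were -0.67 ± 0.14 and -0.47 ± 0.14. Impdh1 encodes an enzyme of guanine nucleotide synthesis. It read 455, 394, 333 and 367 in SMA ceftriaxone cords, against 636, 618, 617 and 621 in SMA vehicle cords and 525, 689.8, 512 and 583 in wildtype cords. The 4 SMA vehicle arrays differed little from each other, all treated arrays lay well below them, and the differences were -0.67 ± 0.11 and -0.56 ± 0.11.

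Igfbp4, a secreted binding protein that holds insulin-like growth factors, read 376, 239, 335 and 204 in SMA ceftriaxone cords, against 621, 410, 402 and 488 in SMA vehicle cords and 469, 428, 393 and 439.6 in wildtype cords. Treated arrays 2 and 4, the highest for most higher members, were the lowest here, and array 1 was close to wildtype array 3. Igfbp4 differed by -0.72 ± 0.18 from SMA vehicle and by -0.59 ± 0.18 from wildtype. Col1a1, the alpha chain of fibrillar collagen I, read 154, 155, 169 and 160.3 in SMA ceftriaxone cords, against 385, 206, 172 and 289.5 in SMA vehicle cords and 213, 254, 251 and 219 in wildtype cords. The treated arrays were within a narrow band, while SMA vehicle arrays varied most, from just above the treated ones to the highest value of all. The differences were -0.61 ± 0.19 and -0.51 ± 0.19, and with Xist signal as a covariate the value against wildtype was -0.85. Lgals1 encodes galectin-1, a secreted sugar-binding protein. It read 1027, 913, 964 and 866 in SMA ceftriaxone cords, against 1273, 1342, 1193 and 1483 in SMA vehicle cords and 1415, 3545, 1385 and 1369 in wildtype cords. Wildtype array 2 was far above every other array, and the difference from wildtype of -0.89 ± 0.24 was -0.555 without it, with -0.48 ± 0.24 from SMA vehicle.

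Mmgt2, named for membrane magnesium transport, read 132, 115, 119.6 and 121 in SMA ceftriaxone cords, against 186, 173, 211 and 291 in SMA vehicle cords and 209.6, 427, 245 and 172 in wildtype cords. The treated arrays were close together and below all others by at least 0.35 log2 units, and wildtype array 2 was again the highest. The differences were -0.72 ± 0.23 from SMA vehicle and -0.94 ± 0.23 from wildtype (-0.69 without wildtype array 2). Sh3kbp1, an X-linked adaptor that takes part in the uptake of receptors, read 564, 491, 484 and 450.3 in SMA ceftriaxone cords, against 683, 642, 739.9 and 768 in SMA vehicle cords and 599, 1766, 708 and 647 in wildtype cords. Without wildtype array 2, the highest value by far, the difference from wildtype was -0.38 in place of -0.74 ± 0.26. The difference from SMA vehicle was -0.50 ± 0.26.

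Without wildtype array 2, 22 of the 34 members still met the rule, 16 higher and 6 lower. The other 12 were Itsn1, Plce1, Gpt2, Flt4, Pcdh20, Grb10, Cux2, Gja1 and probe set 1449043_at on the higher side and Sh3kbp1, Srsf6 and Dimt1 on the lower side. Over all members, the differences from wildtype without that array were 0.30 (Cux2) to 1.02 (Agt) on the higher side and -0.69 (Mmgt2) to -0.30 (Srsf6) on the lower side. Against the 3 other Xist-high arrays alone, the differences were 0.30 to 1.18 for higher and -0.88 to -0.42 for lower members, and the rule itself fixes their signs. Other differences between the sexes were not tested. The log2 ratio of 3′ to 5′ Gapdh signal, a mark of RNA quality, was -0.47 to -0.40 on the treated arrays and -0.45 to -0.39 on the others.

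The members closest to the limit of 0.4 on the inside were Gja1 (0.51 from SMA vehicle and 0.41 from wildtype), Cux2 (0.41 and 0.41) and Grb10 (0.42 and 0.43). Just outside it were Ddit4, a stress-induced inhibitor of growth signalling (0.397 and 1.44), Fcho1, a protein of clathrin endocytosis (-0.59 and -0.397), and Spast, the microtubule-severing enzyme spastin (-0.42 and -0.39).

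The only contrast that the rule did not select on directly is SMA vehicle against wildtype, although the rule favours a small spread among these 8 arrays. In this contrast 4 of 34 members passed (limma, adjusted p under 0.05), all of them higher members and all lower in SMA vehicle than in wildtype cords. Over all probe sets kept, 47.1% passed, 24.9% higher and 22.3% lower, and the members' share is below that background. Pm20d1 had -0.92 ± 0.19 (SE, log2, limma adjusted p = 0.0013), Kcne4 -0.65 ± 0.20 (adjusted p = 0.018), Pdgfc -0.33 ± 0.13 (adjusted p = 0.043) and Papss2 -0.45 ± 0.17 (adjusted p = 0.048). In these 4 genes the mean of the treated SMA cords lay above the wildtype mean, which the rule requires of every higher member. The SMA vehicle mean lay below the wildtype mean. Single arrays of SMA vehicle and wildtype cords overlapped for Kcne4 and Papss2. All 4 missed the threshold when only arrays of low Xist signal were used, with limma adjusted p-values of 0.073 (Pm20d1) to 0.41 (Papss2). That fit held only SMA vehicle arrays 2 and 3 and wildtype arrays 1, 2 and 4. Over all probe sets kept, 2254 passed in it, in place of 6400. Papss2 missed the threshold under 17 of 25 alternatives, Pdgfc under 11 of 26, Kcne4 under 5 of 25 and Pm20d1 under 1 of 17. A gene was counted only where it passed the level limit, so Pm20d1 was tested in just 17 of the 26 alternatives. Without wildtype array 2, 6 members passed, with Plce1 (-0.34) and Gja1 (-0.19) added to these 4. Over all probe sets kept, 31.0% were then higher and 27.5% lower in SMA vehicle, so the members' share was again below the background.

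The other 30 members did not pass in this contrast. Over all 34 members, the 4 that passed included, the median size of the difference was 0.097 log2 units for higher and 0.13 for lower members, against 0.30 over all probe sets kept. The 95% intervals still allow differences of moderate size: that of Agt ran from -0.50 to 0.61, that of Fgfr3 from -0.35 to 0.27, that of Gja1 from -0.32 to 0.11 and that of Nup98 from -0.20 to 0.38. The widest was that of Sh3kbp1, from -0.82 to 0.35.

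**Figure D4:**
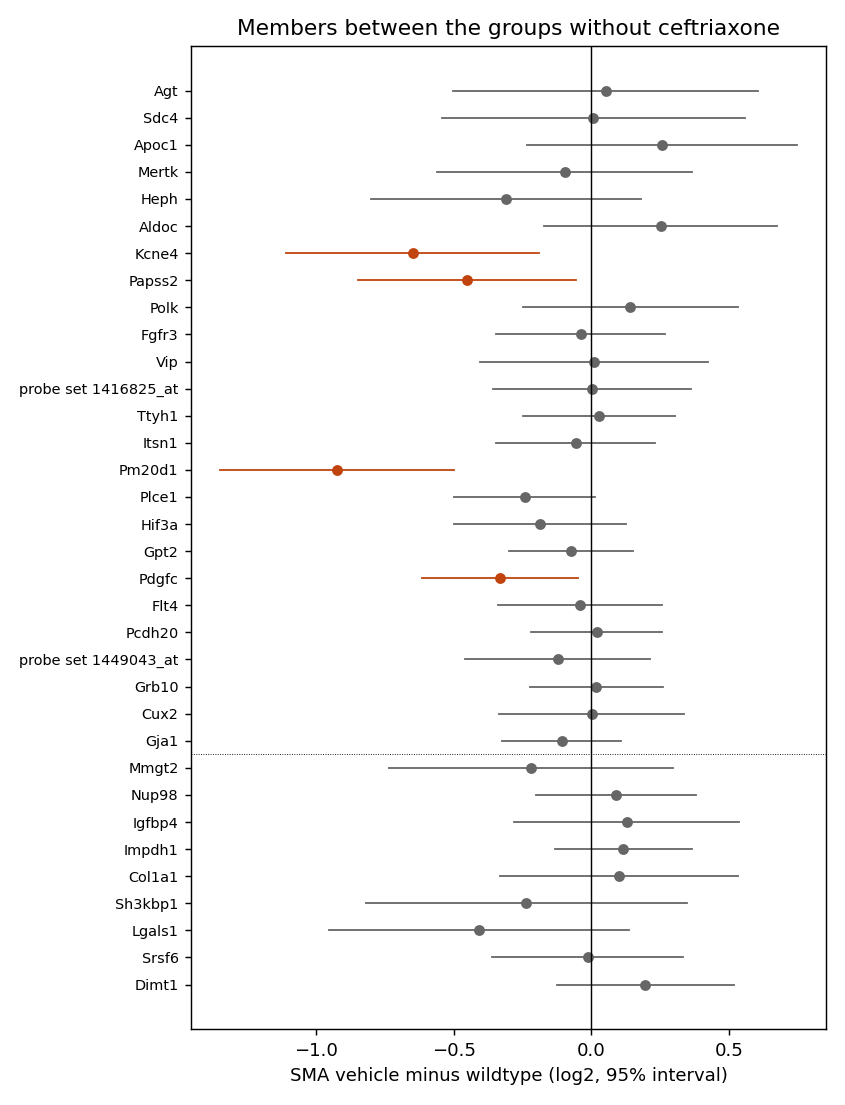
SMA vehicle minus wildtype for each member (log2 difference of means, points, with 95% intervals as lines), higher members above the dotted line. The 4 coloured members, Kcne4, Papss2, Pm20d1 and Pdgfc, passed the limma test and lie below 0, and the intervals of all others include 0.

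Other probe sets for the same genes were also read, with no check of which part of a transcript each covers. There are 41 of them for 21 member genes, of which 29, for 14 genes, passed the level limit. In 26 of the 29, both differences of means had the sign of the member, but only 1, for Gpt2, had all treated arrays apart from the others. For Gja1, the brightest probe set (1437992_x_at) gave 0.42 from SMA vehicle and 0.30 from wildtype, and for Aldoc the brightest (1451461_a_at) gave 0.29 and 0.21. For Igfbp4, the brightest (1437405_a_at) gave -0.42 and -0.56, but treated array 1 read 2396 there, above SMA vehicle arrays at 1704 to 2247. Another Igfbp4 probe set (1437406_x_at) gave -0.16 and -1.05. A second Col1a1 probe set (1423669_at) gave -0.85 and -0.48. The other Sdc4 probe set (1417654_at) gave 0.39 and 0.59, with treated array 3 at 279.8, below SMA vehicle array 2 at 313.5. Differences from SMA vehicle were also small for Fgfr3 probe set 1425796_a_at (0.17, and 0.41 from wildtype) and Sh3kbp1 probe set 1432269_a_at (-0.12, and -0.38 from wildtype). The exceptions in sign were 1 probe set of Itsn1 (1421192_a_at, -0.24 and 0.11) and both other probe sets of Srsf6. Srsf6 probe sets 1416720_at and 1416721_s_at gave -0.70 and -0.82 from SMA vehicle but 0.33 and 0.35 from wildtype, so the position of Srsf6 below wildtype holds for the member probe set alone.

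The astrocyte list holds 4 members (Agt, Aldoc, Fgfr3 and Gja1), and its other 11 genes were read for comparison, each by its brightest probe set. Against SMA vehicle, 8 of the 11 rose in SMA ceftriaxone cords and 0 fell, with a median of 0.72 log2 units (18.3% of all probe sets kept were higher and 17.7% lower, with a median of -0.01). Against wildtype, 2 of the 11 were higher and 0 lower, with a median of 0.19 (3.29% and 0.928% of all, with a median of 0.012). In SMA vehicle against wildtype, 3 were higher and 6 lower, with a median of -0.67, against a median of 0.015 over all. With wildtype array 2 left out, the astrocyte counts were 8, 2 and, for SMA vehicle against wildtype, 3 higher and 7 lower, and the median against wildtype was 0.077 for SMA ceftriaxone and -0.789 for SMA vehicle. Comparisons that share a group are not independent of each other.

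The largest of these 11 were Gjb6, the gene of connexin 30, Ntsr2, a neurotensin receptor, S100b, a calcium-binding protein, and Slc1a2, the main glutamate transporter. Gjb6 differed by 1.93 ± 0.30 (SE) from SMA vehicle (limma adjusted p = 4.4e-04) and by 0.59 from wildtype (adjusted p = 0.31). Ntsr2 differed by 1.65 (adjusted p = 3.0e-04) and 0.16 (adjusted p = 0.78), and S100b by 1.41 (adjusted p = 1.3e-04) and -0.32 (adjusted p = 0.37). Slc1a2 differed by 1.21 (adjusted p = 0.0021) and 0.06 (adjusted p = 0.93). These 4 fell in SMA vehicle against wildtype, with log2 differences of -1.34 (Gjb6), -1.49 (Ntsr2), -1.72 (S100b) and -1.16 (Slc1a2) and limma adjusted p-values of at most 0.0028, and Agt stood at 0.05 ± 0.25 in that contrast. Slc1a2 was dim, at 187.5, 243, 159 and 233 in SMA ceftriaxone cords and 105, 99.2, 63.9 and 55.7 in SMA vehicle cords. In wildtype cords it read 233, 113, 212 and 253. All SMA vehicle arrays and wildtype array 2 lay below 125, the signal at the level minimum. The 3 listed genes that passed on the higher side in SMA vehicle against wildtype cords were picked out after their values were seen. They are the glutamate transporter gene Slc1a3 (0.83, limma adjusted p = 0.0016), the folate enzyme gene Aldh1l1 (0.55, adjusted p = 0.0022) and the transcription factor gene Sox9 (0.43, adjusted p = 0.021). In SMA ceftriaxone against SMA vehicle cords these 3 differed by 0.007 (Slc1a3), 0.064 (Aldh1l1) and 0.054 (Sox9) and did not pass. The summed signal of the 11 genes was 43800.1 to 50019 in SMA ceftriaxone cords, against 22758 to 30564 in SMA vehicle and 32218 to 49460.4 in wildtype cords, so the treated and wildtype ranges overlap and SMA vehicle lies below both. Lists of other cell types also moved in SMA ceftriaxone against SMA vehicle cords. Over all probe sets kept, 18.3% were higher and 17.7% lower there. The test was passed on the higher side by 15 of 15 genes of mature oligodendrocytes (median 2.15), 5 of 6 of their precursors (0.91), 10 of 16 of endothelium and pericytes (0.49), 7 of 15 of microglia and macrophages (0.53) and 4 of 6 of neutrophils and the acute phase (1.08), and by none of these genes on the lower side. Against wildtype, 1 precursor gene was higher and no other gene of these 5 lists passed. SMA vehicle cords lay lower than wildtype in 15 of 15 oligodendrocyte, 4 of 6 precursor, 10 of 16 endothelium and 8 of 15 microglia genes. In that contrast 1 precursor gene was higher, no neutrophil gene passed, and 22.3% of all probe sets kept were lower. Lists of neurons and muscle had more genes lower than higher against SMA vehicle: 9 of 18 genes of spinal interneurons and peptides were lower and 2 higher (median -0.27), 8 of 16 pan-neuronal genes lower and 3 higher (-0.26), 4 of 8 motor neuron genes lower and 1 higher (-0.43, with the genes set aside by the rule left out) and 4 of 5 skeletal muscle genes lower and 1 higher (-2.88). Against wildtype, SMA vehicle cords were higher for 11 and lower for 2 of the interneuron genes, and 9 and 4 of the pan-neuronal genes. The counts were 3 and 1 for motor neurons and 3 and 1 for muscle, beside 24.9% and 22.3% of all probe sets kept. The part of astrocytes or of these other cells in the shift of the members was not tested.

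**Figure D5:**
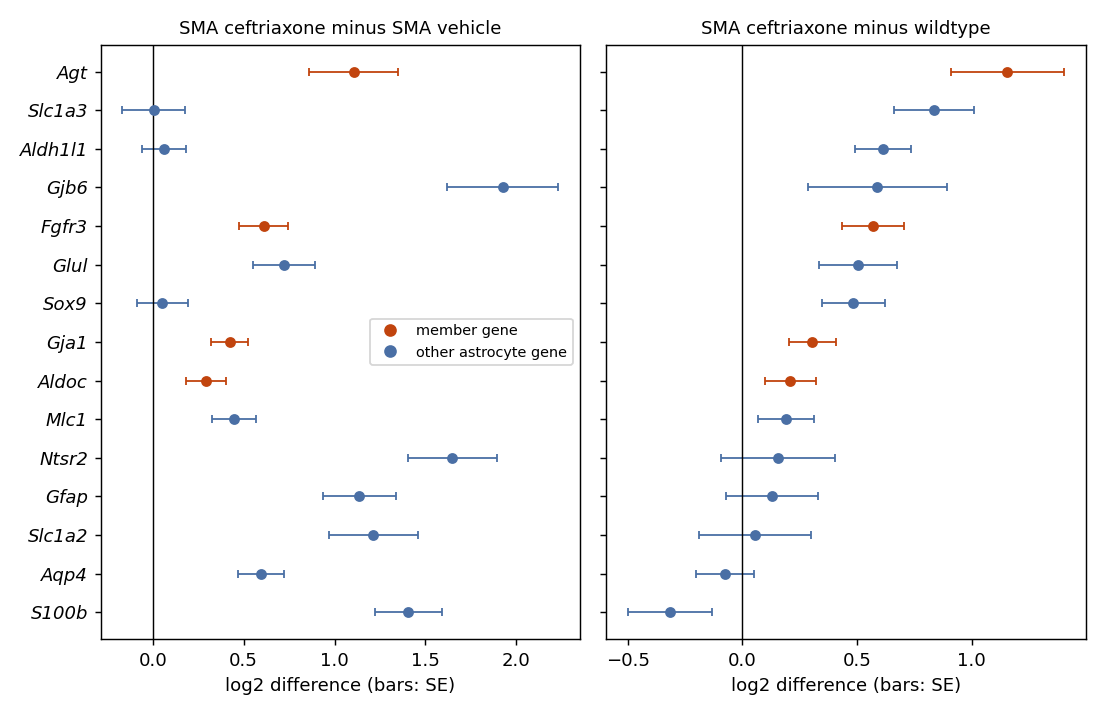
The 15 genes of the astrocyte list, each by its brightest probe set, with log2 differences of means and SE. Left, SMA ceftriaxone minus SMA vehicle. Right, SMA ceftriaxone minus wildtype. Member genes are coloured apart, and Aldoc and Gja1 are shown by brighter probe sets that are not members. Agt (1.10 and 1.16) lies well above 0 in both panels, while Slc1a2 (1.21 and 0.06) and S100b (1.41 and -0.32) do so in the left panel only.

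A further 5 lists hold 1 member each. Mertk is in the list of glucocorticoid response genes. Of its 18 others, 9 rose in SMA ceftriaxone against SMA vehicle cords and 0 fell (median 0.54). Over all probe sets kept, 18.3% rose and 17.7% fell. Against wildtype, 3 of the 18 rose and 0 fell (median 0.39), beside 3.29% and 0.928% of all. SMA vehicle cords had 4 of the 18 higher and 8 lower than wildtype cords (median -0.041), beside 24.9% and 22.3% of all. The 3 that rose against wildtype in SMA ceftriaxone cords were among these 4. Klf9 of this list differed by 1.61 from SMA vehicle (limma adjusted p = 8.9e-05) and 0.42 from wildtype (adjusted p = 0.26). Sult1a1, next in size, differed by 1.59 (limma adjusted p = 0.023) and 1.82 (adjusted p = 0.057). Its treated arrays were far apart, at 129, 742, 204 and 811. Sgk1 differed by 1.54 (limma adjusted p = 0.0020) and 0.64 (adjusted p = 0.28). Polk is in the list of p53 targets. Of the 19 others, leaving out Ccng1, 4 were higher and 1 lower than in SMA vehicle (median 0.25), and 7 were higher than in wildtype and 0 lower (median 0.23). In SMA vehicle against wildtype, 7 of these 19 were higher and 4 lower. The 4 higher than in SMA vehicle are near the 18.3% of all probe sets kept that were, and the 4 lower in SMA vehicle than in wildtype are near the 22.3% of all. The 7 of 19 higher than in wildtype stand beside 3.29% of all, and the 7 of 19 higher in SMA vehicle than in wildtype beside 24.9%. Most of these p53 targets were the same genes in both contrasts. Cdkn1a, which is in both lists, lay 2.21 log2 units above wildtype in SMA ceftriaxone and 2.12 in SMA vehicle cords. Without wildtype array 2, 11 of the 19 p53 targets (median 0.54) and 7 of the 18 glucocorticoid genes (median 0.37) rose against wildtype, where 6.3% of all probe sets kept did.

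Srsf6 is in the list of splicing factors. Of the 22 others, 7 were lower than in SMA vehicle and 0 higher (median -0.225), beside 17.7% and 18.3% of all probe sets kept. Against wildtype, 1 was higher and 1 lower (median 0.006), beside 3.29% and 0.928% of all. Cirbp, a cold-induced RNA-binding protein, differed by -0.73 from SMA vehicle (limma adjusted p = 0.0013) and by 0.92 from wildtype (adjusted p = 0.0039). Srsf5, a close relative of Srsf6, differed by -0.66 (adjusted p = 5.1e-04) and 0.13 (adjusted p = 0.56). In SMA vehicle against wildtype cords, 8 of the 22 were higher and 0 lower, beside 24.9% and 22.3% of all. Without wildtype array 2, 10 of the 22 were lower than in SMA vehicle (25.6% of all probe sets kept), and 6 were higher (6.3%) and 1 lower (4.27%) than in wildtype, with a median of 0.145. In SMA vehicle against wildtype, 15 were then higher (31.0%) and 0 lower (27.5%). Col1a1 is in the list of meninges and fibroblasts and in that of collagens and matrix. Of the 12 others in the meninges list, 2 were higher and 3 lower than in SMA vehicle, and 0 passed against wildtype. Their summed signal, with genes under the level limit included, was 9477 to 12108 in SMA ceftriaxone cords, against 12088 to 16209 in SMA vehicle and 10089 to 12683 in wildtype cords. Of the 20 others in the matrix list, 6 were higher and 2 lower than in SMA vehicle, and 0 passed against wildtype. The shares of both lists against SMA vehicle are to be read beside the 18.3% higher and 17.7% lower over all probe sets kept, and those of the meninges list are near them. With wildtype array 2 left out, 1 gene of the meninges list was lower than in wildtype and 0 of the matrix list passed. The part of meningeal tissue in the Col1a1 values was not tested.

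By position, 6 members (18.8% of those placed) are on chromosome 11, which holds 8.81% of the placed probe sets kept: Aldoc, Flt4, Grb10, Mmgt2, Igfbp4 and Col1a1. Polk and Dimt1 are on chromosome 13, the chromosome of Smn1, and shifted in opposite directions. Heph and Sh3kbp1 are on the X chromosome and also shifted in opposite directions.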

How the data were processed

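The authors deposited MAS5 signal intensity, linear and 1 value per probe set, per the submitters' processing notes; the version of MAS5 is not stated there. They had scaled the arrays to a common level, since the mean after dropping the top and bottom 2% of values was 700.2 to 700.3 throughout. The table has 22690 probe sets. It includes 64 controls, and by GEO's platform annotation of 2016 a single symbol belongs to 20393, more than 1 to 691 and no symbol to 1606. Symbols of 20364 were brought up to date by gene ID, and only probe sets with a single symbol were named.

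The log2 values used here are log2(signal + 16), computed from the signals deposited by the authors, and they understate differences of dim genes. The level minimum of 7.14 is the 40th percentile of mean log2, a geometric mean signal of 125. A model with 1 mean for each group was fitted to all 12 arrays in limma 3.58.1 (R 4.3.3; moderated two-sided tests with the trend option, 9 residual degrees of freedom), and p-values were adjusted by Benjamini-Hochberg across the 13574 probe sets kept, with 0.05 as the threshold. The fit was tested on simulated data. Members have no test in the contrasts that chose them. In a list, each gene is read by its brightest kept probe set.

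The members and the lists were chosen with earlier results of these data known. All members are named. Signals in every array are given for the 12 members per side with the largest smaller-of-both differences and for members of a list. Genes that are no members are named only as up to 4 of a list with a member, as the 3 just outside the limit, or as genes the rule sets aside, apart from Smn1, Slc1a2, Xist and Eif2s3y, which are always given. Rag1, Cd3d, Slc1a3, Aldh1l1, Sox9 and Cdkn1a were picked after seeing their values. Alternatives covered the offset (1 or 64), the normalization (quantile or median centring), the filter (none or the 60th percentile), the limit on differences (0.3 or 0.6), the trend, array weights, a fit to just the groups of the contrast, blocking on replicate number, covariates (Xist, Gapdh 3′ to 5′ ratio) and each array left out. Arrays of low or of high Xist alone, the Xist covariate without wildtype array 2, and list counts without that array, were added after seeing the data. The 4 arrays per group limit the precision: the median SE of SMA vehicle minus wildtype was 0.12 log2 units.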

Additional observations from a re-analysis of the deposited data

Results flagged for a closer look

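In 102 sets of 4 arrays (34 members in 3 groups), 5 single arrays lay far from the other 3 of their group by Dixon's test. Chance alone picks out about 1 in 20 sets. Wildtype array 2, the array with thymocyte transcripts, accounts for 4 of the 5. It read 1766 for Sh3kbp1 against 708 on the nearest wildtype array, 3545 for Lgals1 against 1415, 4291 for Srsf6 against 2658, and 609 for Aldoc against 974. Wildtype array 1 read 177 for Hif3a against 258 on the nearest wildtype array.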

How the results depend on the processing

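The rule gave 25 higher and 9 lower members. It gave 57 and 19 with no filter, 12 and 4 with a filter at the 60th percentile, 50 and 17 with a limit of 0.3, and 8 and 2 with a limit of 0.6. Leaving out each array in turn gave 22 to 97 higher and 9 to 25 lower probe sets. The highest counts came without SMA ceftriaxone array 1 (97 and 25), then without SMA ceftriaxone array 3 (39 and 19), and lower counts of 16, 15 and 14 came without wildtype arrays 2, 3 and 4. Fewer arrays make separation easier by construction. Of the 34 members, 20 met the rule at both other offsets and both other normalizations, and 19 without each array in turn. The differences from wildtype of Vip and Itsn1 moved to 0.27 with Xist signal as a covariate, and to 0.21 and 0.22 when wildtype array 2 was also left out. Grb10 and Gja1 then stood at 0.24 each.

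In SMA vehicle against wildtype, 4 members were called. The count was 1 after quantile normalization, 2 after median centring, 2 with no filter, 1 with a filter at the 60th percentile, 2 with Xist signal as a covariate, 0 to 6 without each array in turn (0 without wildtype array 4) and 0 with only arrays of low Xist signal. Over all probe sets, 6400 were called, 5502 to 7943 without each array in turn and 2254 with only arrays of low Xist signal, where fewer arrays enter. With the replicate number as a block, 2 members and 6176 probe sets were called. Samples of the same number did not deviate together (correlations of -0.14 to 0.13), so the numbers were not taken as pairs. The cause of these changes was not tested. The array signal limits the dim members most: Pm20d1, Cux2 and Flt4 lie near the level minimum.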
